A study of Rattus norvegicus with 12 samples.

Results

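The deposited gene table holds 12 libraries of rat heart RNA, and the 4 libraries of the normoxic control group (CTRL), 4 of 12 in all, were taken as the baseline transcriptome of the untreated heart. They were chosen by their label alone, and no other group was set against them. The rats were male Sprague Dawley animals, an outbred laboratory stock, labelled 5 weeks old and 130 to 150 g. They were kept in normoxia for 8 weeks and, by the labels, received none of the study's agents: neither SU-5416, nor hypoxia, nor chrysin. Whether the age is that at the start or at the end is not stated, and neither is the region of the heart. The libraries are named rat 1 to rat 4 after their replicate numbers, and the labels leave it unsaid whether every library is from an animal of its own. Whether the rats were given the vehicle of chrysin is not stated. No test was run within this 1 group, and the order of genes is given with the spread between rats.

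The heart is a muscle that contracts without rest, and most of its volume is cardiomyocytes, cells packed with sarcomeres and mitochondria. Contraction starts when calcium enters through L-type channels and releases more calcium from the sarcoplasmic reticulum, and it ends when a calcium pump returns that calcium to the store. Many of the proteins involved come in isoform families, of which the heart, skeletal muscle and the fetus use different members. Cardiomyocytes draw most of their ATP from mitochondrial oxidation of fatty acids. Fibroblasts, endothelial cells, pericytes, smooth muscle cells and macrophages make up the rest of the tissue. In bulk RNA, fewer cells of a type and less RNA per cell cannot be told apart.

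Levels are given as CPM, the deposited count of a gene over the library's total count times 1000000. Genes are compared with each other only after division by exon length, as CPM per kb. Means carry the SD over the 4 rats. The 4 libraries held 4712077 to 5443100 counts. Of 32623 genes in the table, 16937 had a count in at least 1 rat and 13763 in each rat, and 12637 averaged at least 1 CPM. Every pair of libraries differed beyond sampling noise (chi-square per degree of freedom 3.17 to 21.9), so each was counted once. Rat 4 stood apart on this measure: the 3 pairs with rat 4 had the 3 highest values. The Pearson correlation of log2 CPM plus 1, over genes at 5 CPM or more, did not single it out. It was 0.9819 for rats 1 and 3, and 0.9815, 0.9826 and 0.9823 for rats 1, 2 and 3 with rat 4. The share of mitochondrially encoded counts was 9.87% in rat 4, where the other 3 rats had 18.3, 18.1 and 19.9%. CPM is a share of the total, so the scale itself differed in rat 4: the mean log2 CPM of all genes at 5 CPM or more lay 0.11 above the 4-rat mean in rat 4, and 0.01 when mitochondrially encoded genes were left out of the total. A gene listed at 0 is not shown to be absent, since genes that every cell uses, such as Hsp90aa1 (a cytosolic chaperone) and Fau (a ribosomal protein precursor), were also listed at 0.

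A small number of genes filled a large share of each library. The 10 genes of highest mean CPM held 21.7 ± 3.17% of all counts. Of these 10 genes, 6 were mitochondrially encoded and 4 were nuclear: Myh6, Atp2a2, Actc1 and Mb. The 100 highest held 40.8 ± 3.10%. It took 239, 246, 204 and 356 genes to reach 50% of the counts in rats 1 to 4, so the library of rat 4 was spread over more genes than the other 3. Without rat 4 the share of the 10 highest was 23.2%. Without mitochondrially encoded genes in the total, the 10 highest nuclear genes held 13%. The 85 genes at 1000 CPM or more together held 39.4 ± 3.13% of the counts, and the 4250 genes between 1 and 10 CPM held 1.91 ± 0.159%.

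The mitochondrial genome encodes 13 proteins of the respiratory chain, and all 13 were among the abundant transcripts. Mt-co1 (ENSRNOG00000034234; mitochondrial genome, 5323 to 6867), which encodes the catalytic subunit of cytochrome c oxidase, was the highest gene of the table with 82141, 83506, 79057 and 49531 CPM in rats 1 to 4. Rat 4 was the low sample and the other 3 lay close together. Per length, Mt-co1 stood at 47611 ± 10438 CPM per kb, Mt-cox3 at 24868 ± 7788, Mt-co2 at 18495 ± 5223, Mt-cyb (cytochrome b of complex III) at 12605 ± 4252 and Mt-atp6 (the proton channel subunit of ATP synthase) at 9643 ± 4037. The lowest of the 13 per length was Mt-atp8 with 1925 ± 1046 CPM per kb. All 13 were lowest in rat 4, and 12 of the 13 were highest in rat 3, the exception being Mt-co1. Mt-nd2, a complex I subunit, had 5727, 5885, 8336 and 1786 CPM in rats 1 to 4, with rat 3 high and rat 4 low.

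The most abundant nuclear gene per length was Mb (ENSRNOG00000004583; chromosome 7, 118101634 to 118108864, on a build that no source used here names), which encodes myoglobin, the oxygen-binding protein of muscle. It had 7951, 9088, 8209 and 8887 CPM per kb in rats 1 to 4, and no rat stood apart. Actc1, cardiac alpha-actin of the thin filament, followed with 6648 ± 373 CPM per kb and Myh6, the alpha-myosin heavy chain, with 6527 ± 610.2. Their difference was smaller than the SD of either. Myl3 (ventricular essential light chain), Tnnt2 (cardiac troponin T), Tnni3 (cardiac troponin I) and Atp5b (the catalytic beta subunit of ATP synthase) came next with 5811 ± 608, 4251 ± 582, 3714 ± 161 and 3683 ± 319 CPM per kb. The neighbours Tnni3 and Atp5b did not differ beyond their spread. Among the 25 nuclear genes of highest CPM per kb, the others included Slc25a4 (the ATP/ADP exchanger of the inner mitochondrial membrane) at 2855 ± 160.2, Atp2a2 (the calcium pump SERCA2) at 2406 ± 118, Cox8b (a cytochrome c oxidase subunit) at 2272 ± 238, Ldhb (heart-type lactate dehydrogenase) at 2159.7 ± 126, Fabp3 (heart fatty acid-binding protein) at 1782 ± 164 and Cryab (a small heat shock protein that protects desmin and titin) at 1307 ± 85.1 CPM per kb. By plain CPM, long genes such as Ryr2, Ahnak and Myom2 entered the top 25, and 18 genes were in the top 25 of both scales.

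**Figure D1:**
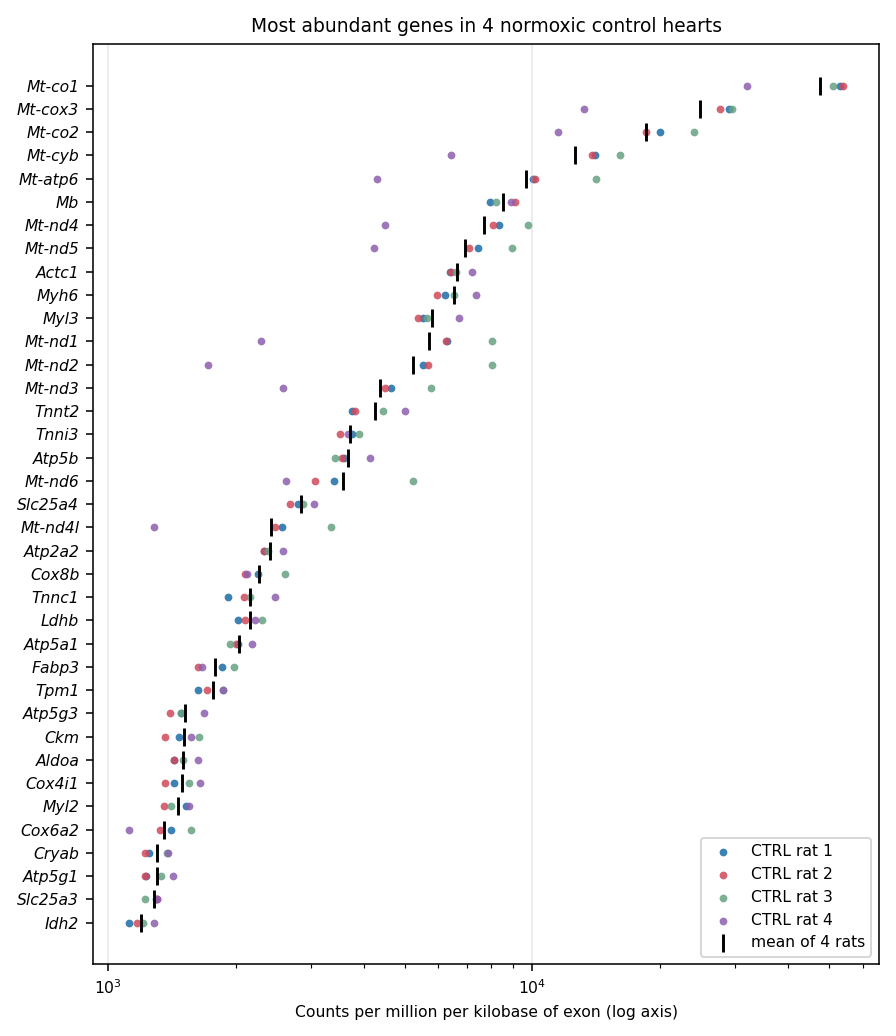
Level in CPM per kb of exon (log axis) of the 25 genes that were highest on this scale and of the further nuclear genes that complete the 25 highest nuclear genes. Coloured points are the 4 CTRL rats and the black tick is their mean; rat 4 lies to the left of the other 3 rats in every mitochondrially encoded gene, whereas the 4 rats lie close together in Mb and Actc1.

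The promoters of Mb and Actc1, the 2 nuclear genes of highest level per length, are shown because they are short regions around the start of very abundant transcripts. They are RefSeq sequences of build GRCr8, 300 bases each, and the table's own coordinates may be of another build. Capitals mark TATAAA, the core promoter element bound by the general transcription machinery, in Mb (chr7:110647693-110647992, minus strand), and the CArG box, the site of serum response factor, in Actc1 (chr3:121271778-121272077, minus strand).
Mb: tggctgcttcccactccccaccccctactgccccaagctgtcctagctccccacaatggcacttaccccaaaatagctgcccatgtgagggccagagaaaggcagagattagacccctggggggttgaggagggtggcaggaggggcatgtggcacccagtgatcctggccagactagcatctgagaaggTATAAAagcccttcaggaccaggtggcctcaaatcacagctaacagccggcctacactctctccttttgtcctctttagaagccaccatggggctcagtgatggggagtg
Actc1: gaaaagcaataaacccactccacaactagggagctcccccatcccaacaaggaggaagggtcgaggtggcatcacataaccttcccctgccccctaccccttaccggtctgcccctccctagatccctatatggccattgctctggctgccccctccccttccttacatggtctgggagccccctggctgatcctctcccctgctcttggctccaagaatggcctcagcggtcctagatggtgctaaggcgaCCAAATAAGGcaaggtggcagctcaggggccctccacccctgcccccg
Mb held 1 TATAAA and Actc1 held 1 CArG box. The sites began at offset -60 from the annotated start in Mb and at 2, past the start, in Actc1. Both strands were searched for each motif, and no other of the 4 motifs searched here lay in either promoter. TATAAA occurred in 14.2% of all 33469 promoters of the same length and in 2 of the 18 that matched the 25 nuclear genes of highest CPM per kb (Mb and Cox8b). A CArG box occurred in 1.64% of all promoters, in 2 of these 18 (Actc1 and Myl3) and in 4 of the 16 matched promoters of the sarcomere list (Actc1, Ldb3, Myl3 and Nebl). These are matches of letters and say nothing of binding.

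Isoform families were examined next, each as the share of its summed CPM per kb held by its leading gene. Of 57 families with at least 2 detected members, 54 had the same leader in all 4 rats. In 22 the leader held over 90% of the family, in 30 it held between 50 and 90%, and in 5 at most 50%. The leader was the same with unique exon reads in all of these families. With total exon reads, which include reads that map to several places, 52 families had 1 leader in all rats; the enolases and the elongation factors 1A no longer did. In the deposited counts, the 3 families whose leader changed between rats were those of Pdk2 and Pdk1, Gata6 and Gata4, and Tbx20 and Nkx2-5. In 42 families every detected member had at least 90% of its exon reads unique, and 40 of those had 1 leader in all rats.

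Among the motor proteins, Myh6 (ENSRNOG00000025757; chromosome 15, 33605654 to 33629699), the fast alpha-myosin of the rodent heart, led the heavy chains with 37562, 35968, 39413 and 44444 CPM in rats 1 to 4. Its neighbour on the chromosome, Myh7 (ENSRNOG00000016983; chromosome 15, 33634422 to 33656089), the slow beta-myosin that the rat ventricle uses before birth and under load, had 5080.4, 4609, 2293 and 4925 CPM. Rat 3 was low for Myh7 and not for Myh6. Per length, Myh6 made up 87.9, 88.5, 94.4 and 89.9% of the pair, a mean of 90.2 ± 2.95%. The 2 genes are near-identical in parts: 79.8% of the exon reads of Myh6 and 76.2% of those of Myh7 were unique, and with unique reads alone the mean share was 90.2%. Myh7b, another striated-muscle heavy chain, stood at 35.7 ± 10.6 CPM per kb, Myh10 and Myh14 (non-muscle myosins) at 11.9 ± 1.45 and 33.6 ± 2.08, and Myh2, of skeletal muscle, at 0.0352 ± 0.0270 CPM per kb.

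Cardiac myosin genes carry microRNAs inside them, and these are shown because they belong to the loci that dominate the heavy chain family. By the deposited coordinates Mir208b lies within Myh7 and Mir499 within Myh7b; miR-208a is known from an intron of Myh6, and its gene was not analysed here. The mature sequences are those of RefSeq (build GRCr8), with the seed, bases 2 to 8, in capitals.
rno-miR-208a-3p: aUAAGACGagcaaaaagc
rno-miR-208b-3p: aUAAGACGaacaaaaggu
rno-miR-499-5p: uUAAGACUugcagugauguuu
The microRNAs of the alpha- and beta-myosin genes share 1 seed. The seed of miR-499 differs from it in base 8 only. These libraries hold long RNA: the table's 407 microRNA genes with 0 exons drew 279 unique reads in all over the 4 rats, and Mir208b and Mir499 drew 0 each, which gives no measure of the microRNAs themselves.

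The light chains divided in the same way. Myl3 held 98.5 ± 0.0647% of the essential light chains, and Myl4, the atrial and fetal one, stood at 1.23 ± 0.281 CPM per kb. Among the regulatory light chains, Myl2 of the ventricle led with 1461 ± 94.1 CPM per kb, ahead of Myl12a at 293 ± 10.1 and Myl9 at 40.7 ± 2.41, which serve non-muscle and smooth muscle myosin. Myl7, the regulatory light chain of the atrium, is taken up with the chamber markers.

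The thin filament and its regulators were almost wholly of the cardiac kind. Tnnc1, Tnni3 and Tnnt2 each held over 99% of the troponin C, I and T families per length in every rat. Tnni1, the slow skeletal troponin I that the fetal heart also makes, stood at 2.16 ± 1.80 CPM per kb. Tpm1 held 94.7 ± 0.421% of the tropomyosins. Of the actins, Actc1 held 87.4 ± 0.796%, and Acta1, skeletal alpha-actin, had 483, 204, 418 and 398 CPM in rats 1 to 4, with rat 2 the low sample. In the thick filament and the Z-disc, Mybpc3, Actn2 and Myoz2 led their families with 99.9, 94.2 and 99.7%. In the M-band, which ties thick filaments together, Myom2 at 1058 ± 135 CPM per kb led Myom1 at 250.0 ± 19.5. Titin was not analysed here. The 24 sarcomere genes found together held 9.83 ± 0.759% of all counts, and 23 of them reached 1 CPM; their median was 849 CPM per kb beside 4.30 over all genes with a count.

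**Figure D2:**
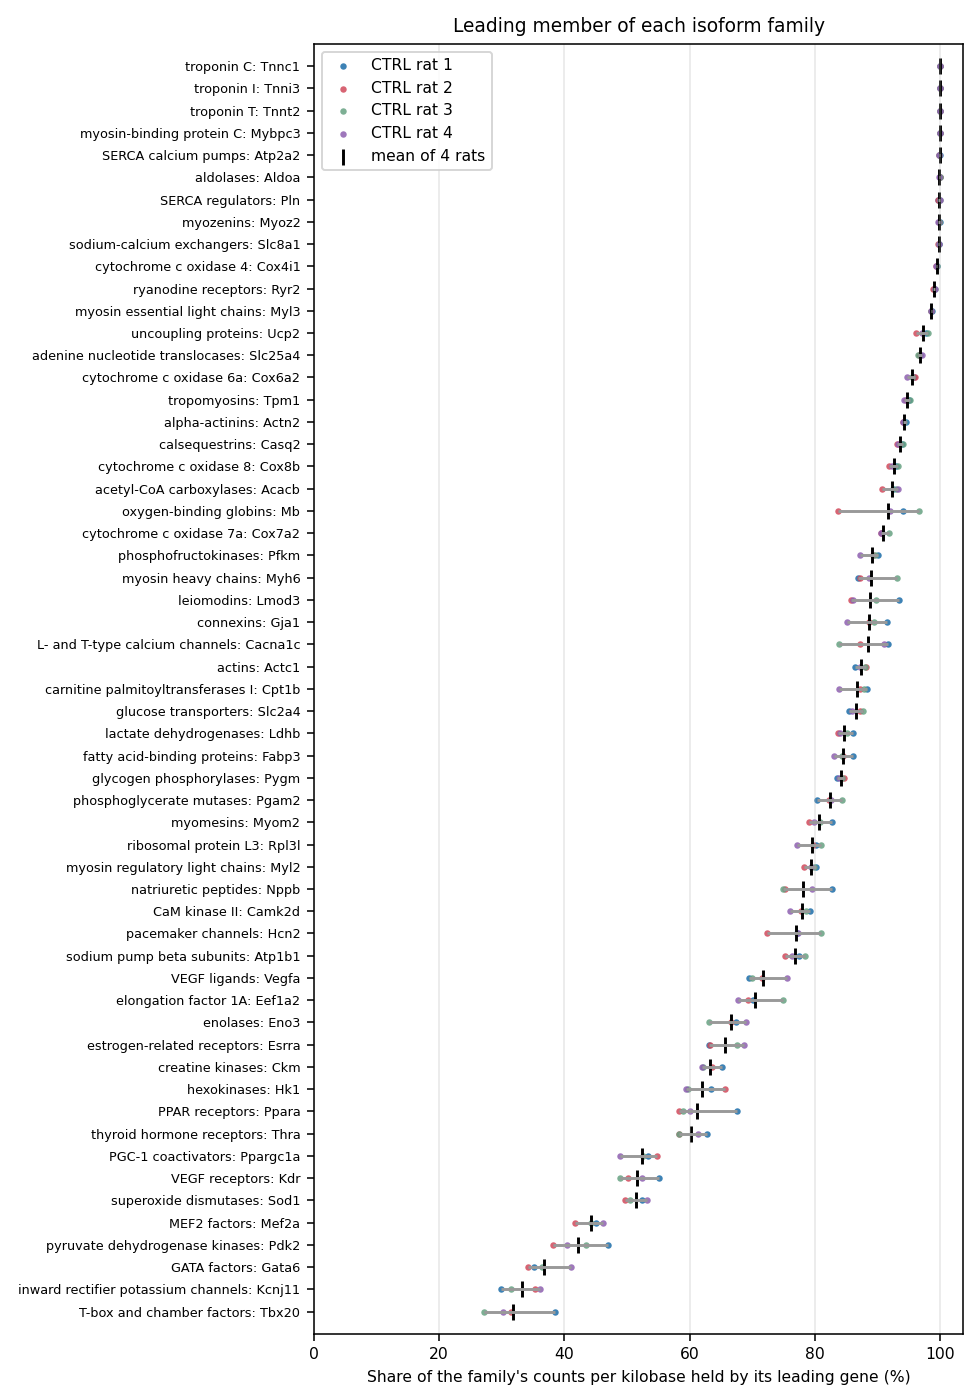
Share (%) of each isoform family's summed counts per kb held by its leading gene in the 4 CTRL rats. Points are rats, the grey line runs from the lowest to the highest rat and the black tick is the mean; troponins, Mybpc3, Atp2a2 and Ryr2 lie at or above 98.9%, whereas inward rectifiers, GATA factors and T-box factors have no gene with over 50%.

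Calcium handling was likewise led by the cardiac members. Atp2a2, which returns calcium to the sarcoplasmic reticulum, had 15422, 15459, 15751 and 17074 CPM in rats 1 to 4 and held 99.9 ± 0.0235% of the SERCA pumps per length. Ryr2, the calcium release channel, had 7914, 7536, 7293 and 7785 CPM and held 99 ± 0.0879% of the ryanodine receptors. Rat 4 was the highest for Atp2a2, and for Ryr2 the 4 rats lay close together. Casq2, the calcium buffer of the store, stood at 389 ± 4.13 CPM per kb and Casq1, its skeletal counterpart, at 26.8 ± 2.25. Slc8a1, the exchanger that removes calcium across the cell membrane, stood at 118 ± 10.6 and Cacna1c, the pore of the L-type channel, at 51.2 ± 6.67 CPM per kb. Pln, the small inhibitor of SERCA2, had 211 ± 8.08 CPM per kb from the deposited counts, but 15.8% of its exon reads were unique. Counting every exon read that the authors list gave Pln 2829.8 ± 212 CPM in place of 476 ± 18.2 CPM, so its level is uncertain, and Sln, the atrial and skeletal inhibitor, had 2 counts in all over the 4 rats.

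Membrane channels and receptors followed. Gja1, connexin 43 of the ventricular gap junction, held 88.6 ± 2.64% of the connexins and had 1174, 886, 833 and 735 CPM in rats 1 to 4. Rat 1 was the high sample and rat 4 the lowest. Gja5, the connexin of atrium and conduction system, stood at 3.42 ± 1.15 CPM per kb. Among the pacemaker channels, Hcn2 at 41 ± 5.68 CPM per kb led Hcn4 at 12.2 ± 1.93. The inward rectifiers had no gene with over 50%: Kcnj11, the pore of the ATP-sensitive channel, stood at 46.1 ± 3.87, Kcnj3 at 31.5 ± 4.87 and Kcnj2, of the resting potential current, at 19.3 ± 3.50 CPM per kb. Adrb1, the main beta-adrenergic receptor of the heart, stood at 10.2 ± 2.92 CPM per kb, while Adrb3 had 0 counts in all 4 rats.

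The natriuretic peptides, hormones that the heart releases when stretched, differed in level between the rats. Nppb, the B-type peptide, had 21.4, 58.2, 43.8 and 40.5 CPM in rats 1 to 4, and Nppa, the atrial peptide, had 5.94, 25.4, 19.4 and 13.6 CPM. Rat 1 was the lowest and rat 2 the highest for both. Per length Nppb exceeded Nppa in every rat and held 74.9 to 82.6% of the family.

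Fatty acid oxidation was covered by 20 listed genes, all at 1 CPM or more, with a median of 252 CPM per kb. Fabp3 carried the highest level of the list. Acadl, Hadhb and Acadm, enzymes of the beta-oxidation cycle, stood at 856 ± 43, 633 ± 46.1 and 478 ± 14.7 CPM per kb. Cpt1b, the muscle gatekeeper of fatty acid entry into mitochondria, stood at 154 ± 11.1 and its liver form Cpt1a at 22 ± 3.63 CPM per kb. Acacb, which makes the malonyl-CoA that inhibits this gate, stood at 84.3 ± 11 and Acaca, of fat synthesis, at 6.99 ± 0.921 CPM per kb. Lpl, the lipase that frees fatty acids from circulating triglyceride, stood at 917 ± 62.4 CPM per kb and was among the 25 highest genes by CPM.

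Several families of glucose genes were led by muscle and heart isoforms as well, but not all. Slc2a4, the insulin-regulated transporter, stood at 144 ± 7.73 CPM per kb beside 10.2 ± 1.29 for Slc2a1. Pfkm, Pgam2, Eno3 and Pygm, the muscle forms of 3 glycolytic enzymes and of glycogen phosphorylase, led their families with 89, 82.3, 66.5 and 84.1%. The lead of Eno3 is uncertain: 16.7% of the exon reads of Eno1 were unique, and with total exon reads Eno3 held 51.4 ± 3.07% and Eno1 led in at least 1 rat. Ldhb, the subunit of the lactate-oxidising form, held 84.7 ± 1.07% of lactate dehydrogenase, with Ldha at 391 ± 42.8 CPM per kb from 55.9% unique exon reads; with total exon reads the share was 79.7 ± 1.48%. Hk1 and Hk2, which trap glucose, stood at 67.3 ± 4.95 and 40.8 ± 6.42 CPM per kb. Hk1 led the hexokinases in each rat and held 62.0 ± 2.97% of them. Pdk2 and Pdk1, kinases that switch pyruvate dehydrogenase off, were near each other at 153 ± 11.5 and 138 ± 7.29 CPM per kb, and the leader changed from rat to rat. The levels of Gapdh and Tpi1 are uncertain too, because 0.630 and 3.00% of their exon reads were unique.

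Nearly all nuclear genes of the respiratory chain were detected. Of the genes found, 35 of 38 of complex I, 4 of 4 of complex II, 9 of 10 of complex III, 14 of 14 of complex IV and 15 of 15 of complex V reached 1 CPM. Their medians were 240.0, 403, 488, 805 and 662 CPM per kb, beside 4.30 over all genes with a count. Muscle isoforms led here too: Cox6a2 held 95.5 ± 0.548% of its pair (89.4% with total exon reads) and Cox8b 92.6 ± 0.629%. Cox7a1, the muscle form of subunit 7a, had no unique exon read (69 exon reads in all), and its level cannot be read from the table. Ckm and Ckmt2, the muscle and mitochondrial creatine kinases that carry ATP energy to the sarcomere, stood at 1508 ± 121 and 738 ± 92.6 CPM per kb, and Ckb, the brain form, had 163, 180.2, 311 and 162 CPM in rats 1 to 4 with rat 3 the high sample. Idh2 and Mdh2 led the listed genes of the TCA cycle with 1195 ± 67.4 and 767 ± 24.5 CPM per kb.

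Among translation genes, Eef1a2, the elongation factor of muscle and neurons, stood at 425 ± 14 CPM per kb and Eef1a1, the general form, at 179 ± 26.5, although 20.8% of the exon reads of Eef1a1 were unique. With total exon reads Eef1a2 held 50.5 ± 3.94% of the pair and Eef1a1 led in at least 1 rat, so the lead is uncertain. Rpl3l, the ribosomal protein L3 of striated muscle, stood at 172 ± 5.79 and Rpl3 at 44.8 ± 6.15 CPM per kb, and both had at least 99% of their reads unique. Of the 85 cytosolic ribosomal protein genes and copies, 65 had under 90% of their exon reads unique, so the list's median of 68.3 CPM per kb is uncertain.

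Among regulators, Esrra, Ppara and Ppargc1a, which drive genes of oxidative metabolism, stood at 57.3 ± 5.48, 32.8 ± 1.80 and 33.8 ± 1.71 CPM per kb and led their families. The cardiac transcription factors were spread over several genes: Mef2a at 50.2 ± 3.05, Tbx20 at 46.2 ± 9.46, Nkx2-5 at 39.3 ± 6.21, Gata6 at 36.5 ± 4.34 and Gata4 at 35.7 ± 3.73 CPM per kb. Neighbours in this order did not differ beyond their spread. Vegfa, the growth factor of blood vessels, stood at 165 ± 21.2 CPM per kb and held 71.7 ± 2.75% of its family. Its receptors Kdr and Flt1 stood at 37.2 ± 3.98 and 30.2 ± 1.13 CPM per kb.

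Marker genes were used to ask which cells and which chamber the tissue held. Ventricular markers were high: besides Myl3 and Myl2, Fhl2 stood at 838 ± 101 and Mylk3, the kinase of the cardiac light chain, at 294 ± 41.1 CPM per kb, and Irx4 and Hey2, ventricular transcription factors, at 12.7 ± 1.51 and 6.30 ± 1.33. Lrrc10 was listed at 0, and Kcnip2 had 1.70% unique exon reads. Of 12 atrial markers 8 reached 1 CPM, with a median of 6.34 CPM per kb beside 127 for the 10 ventricular markers. The 4 that did not were Sln, Bmp10, Mybphl and Myl4, which averaged 0.0990, 0.148, 0.289 and 0.976 CPM. Dkk3 had the highest level of the list with 35.8 ± 2.60 CPM per kb. The limit that 3 counts over the group allow is 0.148 CPM, which covers counting error only.

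Myl7 (ENSRNOG00000014409; chromosome 14, 86143862 to 86147553) differed from the other atrial markers in its pattern over the rats. It had 32.7, 0.551, 1.17 and 56.4 CPM in rats 1 to 4, all from uniquely mapped reads. Rats 1 and 4 were high and rats 2 and 3 near 0, with no value in between. As a share of Myl2 plus Myl7 per length it made up 1.02, 0.0197, 0.0403 and 1.73%. The mean of 0.704% rested on those 2 rats and was 0.362% without rat 4. Cds1, an enzyme of phosphatidylinositol synthesis, had a like pattern with 10.6, 0.367, 1.37 and 14.2 CPM. The other 7 atrial markers that reached 1 CPM did not show this split. Nppa had 5.94, 25.4, 19.4 and 13.6 CPM in rats 1 to 4, with rats 2 and 3 above rats 1 and 4. Gja5 had 9.13, 6.25, 12.7 and 14 CPM, with rats 3 and 4 the higher pair. Kcna5, an atrial potassium channel, had 7.0, 15.4, 8.80 and 16.8 CPM, with rats 2 and 4 the higher pair. Kcnj3, of the acetylcholine-gated potassium channel, had 63.7, 58.6, 63.3 and 44.7 CPM, and rat 4 was the lowest. Dkk3, a secreted Wnt modulator, had 172, 176, 170.5 and 198 CPM, the transcription factor Tbx5 42.9, 49.4, 47.5 and 42.5 CPM and Nr2f2, which specifies atrial identity, 10.6, 10.3, 15.3 and 14.6 CPM. In none of these 3 genes were both rats 1 and 4 above rats 2 and 3. Sln, Bmp10, Mybphl and Myl4 had too few counts to compare between rats. Whether the pieces of heart sampled differed was not tested.

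Markers of each supporting cell type of the heart were detected. Every fibroblast, smooth muscle, pericyte and macrophage marker found reached 1 CPM (10, 7, 7 and 9 genes), and 9 of 10 endothelial markers did, Cldn5 being listed at 0. The fibroblast genes Gsn, Col3a1, Dcn and Col1a1 stood at 619 ± 50.7, 535 ± 164, 238 ± 12.9 and 207 ± 76.6 CPM per kb; Gsn (gelsolin) is also made by muscle. The endothelial cadherin Cdh5 stood at 70.5 ± 4.14, the pericyte gene Rgs5 at 168 ± 7.55, smooth muscle Acta2 at 44.3 ± 16.9 and the macrophage receptor Csf1r at 12.7 ± 1.10 CPM per kb. Median levels were, from highest to lowest, those of the fibroblast, endothelial, smooth muscle, pericyte and macrophage lists, with 72, 30.9, 19.5, 19.2 and 8.17 CPM per kb.

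Most markers of other organs and of lymphoid cells were at or near 0. None of 5 B cell markers, 1 of 5 lung epithelial markers (Napsa) and 2 of 5 epicardial and mesothelial markers reached 1 CPM, as did 4 of 8 T and NK cell, 2 of 5 neutrophil, 2 of 4 mast cell, 1 of 4 platelet and 5 of 6 Schwann cell and nerve markers. Conduction, endocardial and lymphatic lists had medians of 2.83, 4.28 and 9.79 CPM per kb. The surfactant gene Sftpc had 0, 1.10, 0 and 0.989 CPM in rats 1 to 4. Of the adipocyte markers, Adipoq had 1 count over the 4 rats and Plin1 was listed at 0, while Cidea stood at 35.4 ± 5.97 CPM per kb. Cd1d1, at 25.7 ± 3.04 CPM per kb, was the only thymus marker at 1 CPM. Of the skeletal muscle markers, Ckm and Acta1 are also genes of heart muscle, and Neb and Tnnt3 averaged 17 and 2.92 CPM; Myh2, Tnni2, Mylpf, Actn3 and Pvalb were all under 1 CPM.

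**Figure D3:**
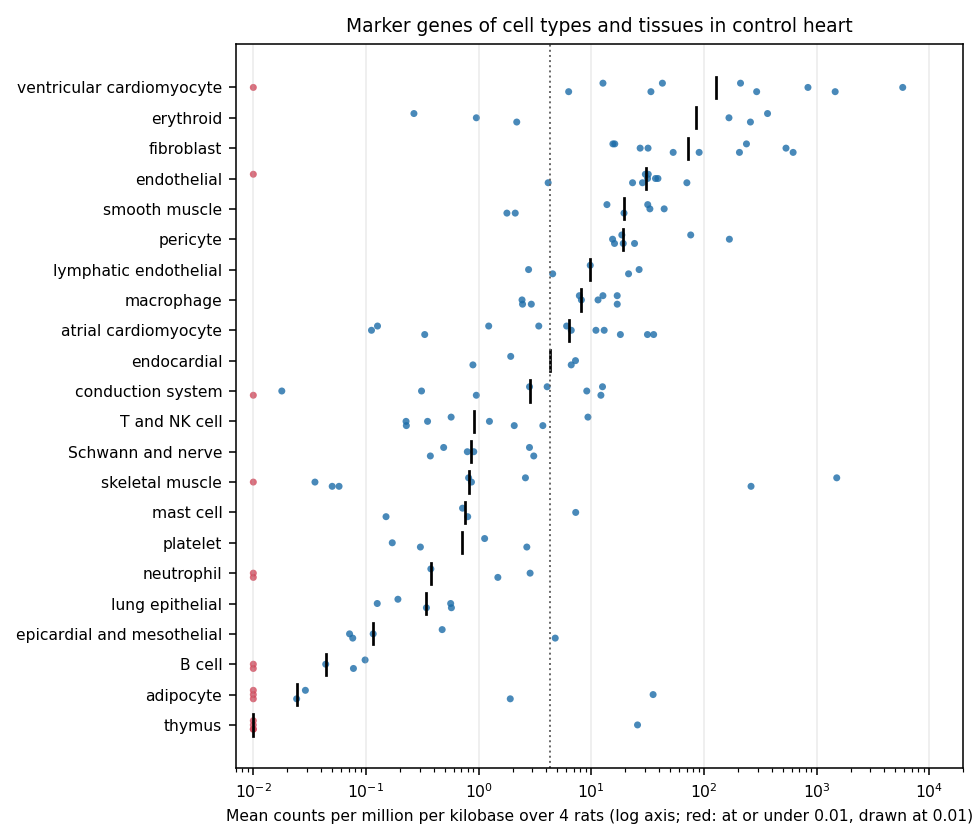
Mean CPM per kb over the 4 CTRL rats (log axis) of each marker gene, by cell type or tissue list, with the black bar at the list's median and the dotted line at the median of all genes with a count. The medians of the ventricular, fibroblast and endothelial lists lie to the right of the dotted line, and the thymus, adipocyte and B cell lists have the 3 lowest medians; red points are genes at or under 0.01 CPM per kb.

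Reads within introns can come, among other sources, from RNA that is not yet spliced, from retained introns or from other transcripts inside the gene. The table does not separate these. Over all nuclear genes, 48.7 ± 1.13% of the unique reads lay in introns, with rat 3 the lowest at 47.3% and rat 4 the highest. The median gene with more than 1 exon and at least 100 unique reads had an intron share of 49.2% (11644 genes). The share of a gene was stable between rats: its Pearson correlation over these genes was 0.971 to 0.977 between pairs of rats, a description across genes that share each library's depth. Junction reads made up 28.6 to 28.9% of the unique exon reads of nuclear genes.

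Intron share went with the length of the gene. Its median was 13% in genes spanning under 5 kb, 51.3% between 20 and 50 kb and 92% in the 312 genes of 300 kb or more. Spearman's rho between span and share was 0.650 across the 11644 genes and 0.652 across the 8507 that overlap no other gene and have at least 90% of their exon reads unique. The share also went down with abundance, with medians of 64.6% at 1 to 10 CPM and 7.56% at 1000 CPM or more. Both relations are partly built into the measure. A longer gene has more intron bases to collect reads, and exon reads enter both CPM and the share.

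**Figure D4:**
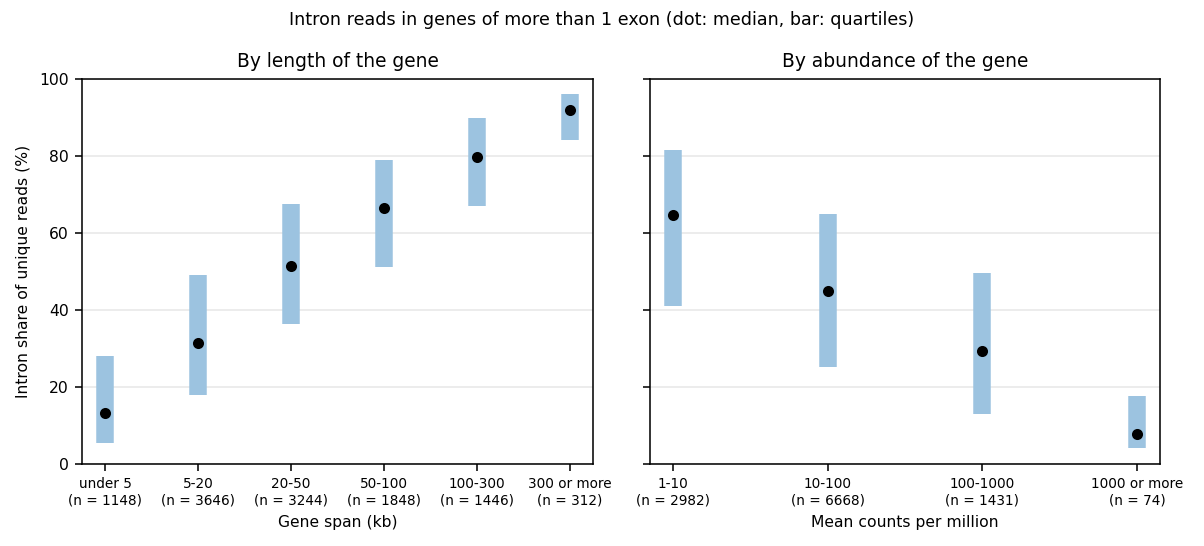
Intron share (%) of unique reads in genes of more than 1 exon with at least 100 unique reads over the 4 CTRL rats, by gene span in kb (left) and by mean CPM (right). Dots are medians, bars run between the quartiles and n is the number of genes; medians go from 13% under 5 kb to 92% at 300 kb or more, and from 64.6% at 1 to 10 CPM to 7.56% at 1000 CPM or more.

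Gene groups differed widely in intron share. Nuclear genes of complexes IV and V had medians of 2.26 and 2.35%, fibroblast markers 8.65% and sarcomere genes 15.6%, whereas calcium handling genes had 54.9%. Within the calcium genes, Hrc (a calcium-binding protein of the store) had 0.590% and Atp2a2 10.1%, while Ryr2 had 41.8%, Slc8a1 87%, Trdn (triadin, which anchors the release complex) 91.4% and Cacnb2 (an L-type channel subunit) 94.6%. In several abundant muscle genes the share was low: 3.03% in Actc1, 3.65% in Mb, 4.31% in Myl3 and 6.21% in Myh6. Tnnt2 was an exception with 28%, and Myl2, whose exon length in the table is 480 bases, had 32.3%. The collagen Col1a1 had 1.68%.

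Exon and intron reads of Myh7 did not move together in rat 3. Myh7 had 5678, 6087, 6110 and 8995 unique intron reads in rats 1 to 4, and rat 3 was not low. Its intron share was 20.4, 20.8, 36.2 and 28.2%, so rat 3, which had the fewest exon counts of Myh7, had the highest intron share. For Myh6 the intron share was 6.42, 5.58, 4.98 and 7.66%, with rat 4 the highest. Both genes overlap 2 other genes of the table, and whether reads of those genes entered the intron column was not tested.

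At the extremes of intron share, many genes lay within or over another gene. The 12 lowest shares by the rule for named genes were all 0, in Pln, Cox7a2, Fth1, Atp5j, Tnxb, Serf2, Pdia3, Rps9, Nucb1, Adprhl1, Srcap and Ddx39b. Of 119 genes with no intron read at all, 111 overlap another gene of the table, where 2599 of all 11644 genes do. All 102 genes that lie wholly within another gene had no intron read. Pln, for example, lies within Cep85l by the deposited coordinates. How reads within a host gene were assigned is not stated, so a share of 0 there gives no measure of splicing. At the other end, Gramd1c (chromosome 11, 61605937 to 62634803) had 35520 intron reads and 11 exon reads, over a span of 1029 kb that holds 10 other genes or parts of them. Kcnk12, a potassium channel gene, had 1434 intron reads and no exon read. Among genes that overlap no other gene and have at least 90% unique exon reads, the highest shares were in Iqca1, Smim10l1 and Sh3bgrl2 (99.7, 99.3 and 99.1%), none of which reached 2 CPM. The lowest were in Lum (a matrix proteoglycan), Cox6a2 and Kcna2 with 0.545, 0.775 and 0.792%. Rbms3, an RNA-binding protein gene of the same kind at 8.34 ± 0.707 CPM, spans 984 kb and had 98.8%.

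Most genes varied little between the 4 rats. After counting variance was taken off, the median coefficient of variation (CV, the SD over the mean) was 0.0745 over 10060 genes at 5 CPM or more, and 61.8% of them were under 0.1. Without rat 4 the median was 0.0397. Without mitochondrially encoded genes in the total it was 0.0562. The CVs below are all on the CPM scale. On it, the mean log2 level of all genes lay 0.11 above the 4-rat mean in rat 4. The steadiest genes and lists may differ on another total. Of 1537 genes at 100 CPM or more, 111 varied no more than counting alone would give. With 4 rats, some genes can reach this by chance. The steadiest of these were Nrdc, Ctsd (a lysosomal protease), Podxl, Idh3g and Casq2; Casq2 had 977, 985, 976 and 999 CPM in rats 1 to 4. By list, the TCA cycle had a median CV of 0.0333 and fatty acid oxidation 0.0538, while immediate early genes had 0.454, smooth muscle markers 0.293 and clock genes 0.245. Among the 15 highest values by the rule for named genes were those of Sccpdh, Myl7, Fam50a, Cds1, Fosb, Hba-a2_1, Atf3, Hbb, RT1-A2, Dnah5, Hba-a2_2, RT1-CE16_1, Cttn_2 and RT1-CE9-ps1. Of these, Sccpdh, Fam50a and Cttn_2 had under 2% of their exon reads unique, and the RT1 genes of the rat MHC 33.1 to 72.1%, so their spread is uncertain.

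Immediate early genes, which cells switch on within minutes of a stimulus, had the highest median CV of the nuclear cell type and pathway lists after the erythroid one (0.850). Fos had 90.2, 27.9, 29.3 and 124 CPM in rats 1 to 4, Atf3 24.6, 2.20, 5.28 and 25.3 CPM and Nr4a1 82.1, 22.6, 29.3 and 89.4 CPM. In all 3 genes rats 1 and 4 were high and rats 2 and 3 low. Of the 15 genes of the list, 10 were highest in rat 4 and 5 in rat 1 with mitochondrially encoded genes left out of the total, and 12 and 3 with them kept in. Over all genes at 5 CPM or more, 28.2% were highest in rat 4 and 26.4% in rat 1 without the mitochondrially encoded genes, and 54.5% and 18.1% with them. The list's mean log2 level lay 0.45, -0.68, -0.40 and 0.62 from the 4-rat mean in rats 1 to 4, relative to all genes. Egr1, a zinc finger factor, had 273, 127, 156 and 308 CPM, Btg2, an antiproliferative gene, 229, 117, 108 and 308 CPM and Junb 132, 85.8, 103 and 222 CPM. The time of day, the handling of the rats and the delay before freezing are not given in the labels, and their part in this was not tested.

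Clock genes differed between the rats in opposite directions. Arntl, the activator of the clock, had 43.7, 31.6, 18.8 and 21.4 CPM in rats 1 to 4, and its partner Npas2 had 34.4, 24.6, 16.4 and 18.8 CPM. For both, rat 1 was the highest and rat 3 the lowest. The output gene Dbp had 42.7, 51.4, 71.2 and 88.4 CPM, Tef 93.8, 116, 133 and 169 CPM and Per2, a repressor of the clock, 25.9, 35.6, 39.5 and 62.1 CPM. For these 3 genes rat 1 was the lowest and rat 4 the highest. Ciart, another repressor, had 1.91, 2.76, 7.63 and 7.12 CPM, with rats 3 and 4 above rats 1 and 2. Nr1d1, the repressor of Arntl, had 81.3, 83.2, 121 and 134 CPM from 87.8% unique exon reads. Rats 3 and 4 were again the higher pair. Clock itself had 146, 132, 117 and 129 CPM. Like Arntl and Npas2, it was highest in rat 1 and lowest in rat 3. The members moved both ways, and the mean of the list stayed within 0.11 log2 of the mean of all genes in every rat.

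Promoters of 4 genes from these lists are shown because several genes of each list differed between the same rats. They are RefSeq sequences of build GRCr8. Capitals mark the CArG box in Egr1 (chr18:26736828-26737127, plus strand), the cyclic AMP response element TGACGTCA in Btg2 (chr13:48087641-48087940, minus strand), and the E-box CACGTG, to which the clock activators bind, in Ciart (chr2:186112197-186112496, minus strand) and Tef (chr7:115206577-115206876, plus strand).
Egr1: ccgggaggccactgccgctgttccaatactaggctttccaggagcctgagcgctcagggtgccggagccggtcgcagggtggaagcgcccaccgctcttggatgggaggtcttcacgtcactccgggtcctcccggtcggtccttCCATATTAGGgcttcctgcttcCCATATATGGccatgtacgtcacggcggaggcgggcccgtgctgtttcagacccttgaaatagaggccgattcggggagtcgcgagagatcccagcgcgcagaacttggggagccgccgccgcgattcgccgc
Btg2: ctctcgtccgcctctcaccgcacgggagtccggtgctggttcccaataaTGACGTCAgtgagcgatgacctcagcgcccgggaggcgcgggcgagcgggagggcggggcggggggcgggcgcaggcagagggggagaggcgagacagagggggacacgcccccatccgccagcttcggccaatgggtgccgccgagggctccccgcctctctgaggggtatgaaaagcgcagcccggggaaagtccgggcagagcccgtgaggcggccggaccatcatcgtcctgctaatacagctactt
Ciart: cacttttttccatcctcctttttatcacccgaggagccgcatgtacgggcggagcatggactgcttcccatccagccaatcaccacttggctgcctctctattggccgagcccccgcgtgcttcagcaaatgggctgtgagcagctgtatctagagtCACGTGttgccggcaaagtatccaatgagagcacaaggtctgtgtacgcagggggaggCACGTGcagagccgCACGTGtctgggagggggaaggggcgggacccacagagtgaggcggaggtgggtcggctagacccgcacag
Tef: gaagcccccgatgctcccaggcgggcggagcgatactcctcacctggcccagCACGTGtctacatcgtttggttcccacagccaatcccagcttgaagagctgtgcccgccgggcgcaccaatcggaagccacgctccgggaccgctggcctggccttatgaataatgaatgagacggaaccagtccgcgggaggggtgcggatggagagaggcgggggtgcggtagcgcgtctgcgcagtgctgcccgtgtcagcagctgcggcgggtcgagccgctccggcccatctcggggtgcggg
Egr1 held 2 CArG boxes, Ciart 3 E-boxes, and Btg2 and Tef 1 motif each. CACGTG was in 4 of the 12 clock genes with a promoter in the reference (Bhlhe41, Ciart, Nr1d1 and Tef) and in 6.42% of all promoters of this length. TGACGTCA was in 3 of the 9 immediate early genes matched (Btg2, Dusp1 and Ier2) and in 1.83% of all promoters, and a CArG box was in 2 of the 9 (Egr1 and Egr2). Nothing is drawn from promoters without a match.

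**Figure D5:**
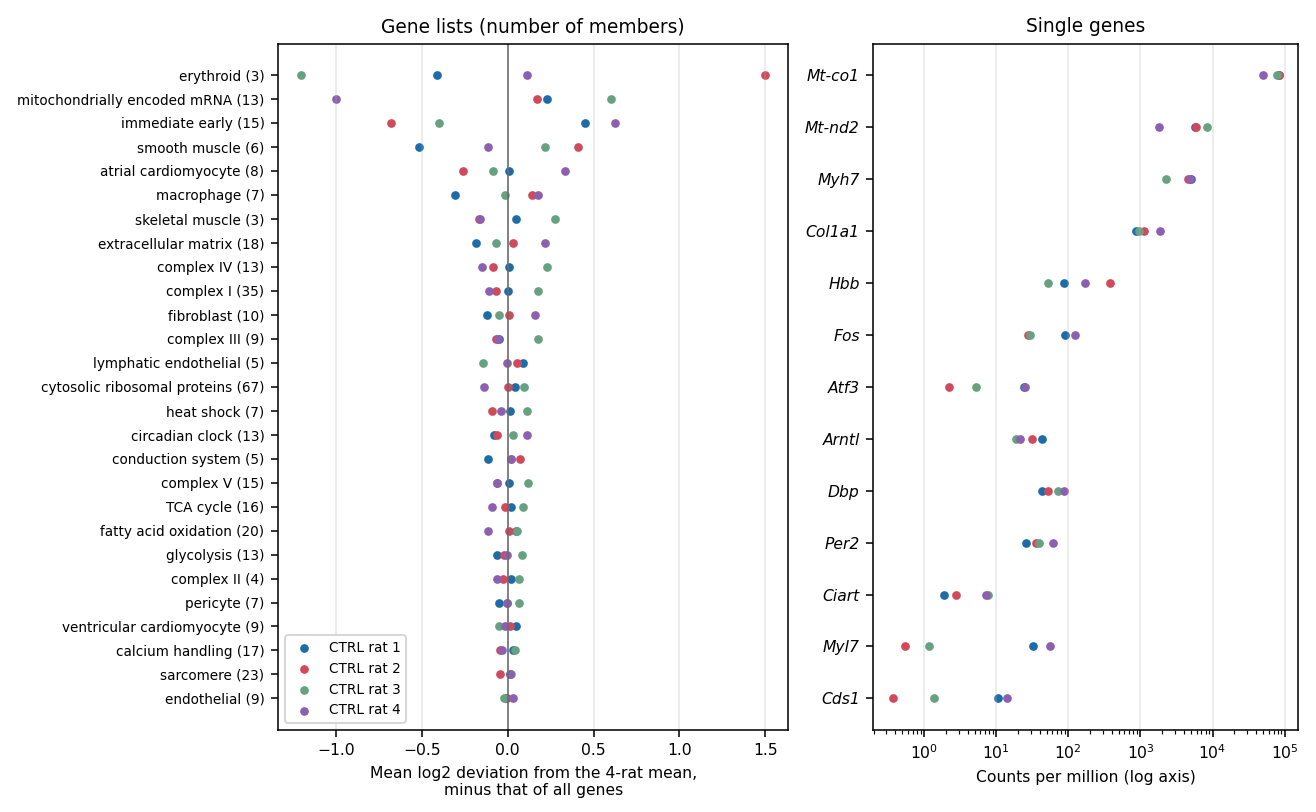
Left: mean log2 deviation of each gene list in each CTRL rat from the 4-rat mean, minus that of all genes at 5 CPM or more, with mitochondrially encoded genes left out of the library total and the number of members in brackets. Right: CPM (log axis) of single genes in each rat; erythroid genes are highest in rat 2, mitochondrially encoded genes lowest in rat 4, and Myl7, Cds1, Fos and Atf3 are higher in rats 1 and 4 than in rats 2 and 3.

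Genes of blood and of the vessel wall varied on their own. The globin Hbb had 86.8, 376, 52 and 168 CPM in rats 1 to 4 and Hba-a2_2 131, 437, 65.3 and 183 CPM, with rat 2 the highest and rat 3 the lowest, and 74.9 and 58.3% of their exon reads were unique. Myh11, the heavy chain of smooth muscle myosin, had 76.8, 193, 145 and 107 CPM in rats 1 to 4. Tagln, which binds actin in the same cells, had 20.4, 61.2, 47.5 and 29.9 CPM. Rat 1 was the lowest and rat 2 the highest in both. All 6 smooth muscle markers at 5 CPM or more were lowest in rat 1. The matrix genes were highest in rat 4 in 12 of 18 cases with mitochondrially encoded genes left out of the total, and lowest in rat 1 in 12 of 18, where all genes were highest in rat 4 in 28.2% and lowest in rat 1 in 24.6% of cases. With mitochondrially encoded genes in the total, 15 of 18 were highest in rat 4, beside 54.5% of all genes. Col1a1, the main fibrillar collagen, had 871, 1127, 961 and 1853 CPM and Col3a1 1971, 2469, 2078 and 3674 CPM, and rat 4 stood above the other 3 in both. S100a9, a neutrophil protein, had 1.70, 0, 0.196 and 4.15 CPM and was highest in rat 4. Csf3r, the receptor for the neutrophil growth factor, had 1.06, 0.367, 0.196 and 4.55 CPM, again highest in rat 4. Amounts of blood and vessel in each piece of tissue were not measured, and their part in these differences was not tested.

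Respiratory genes of both genomes were most often highest in rat 3 when mitochondrially encoded genes were left out of the total. Among genes at 5 CPM or more, these were 28 of 35 of complex I and 2 of 4 of complex II. They were 7 of 9 of complex III, 12 of 13 of complex IV and 9 of 15 of complex V, beside 21% of all genes. Relative to all genes the mean log2 level of complex IV in rat 3 was 0.23 above the 4-rat mean, that of complex I 0.18 and that of the mitochondrially encoded genes 0.60. In rat 4, 17 of 20 fatty acid oxidation genes and 13 of 16 TCA cycle genes were the lowest of the 4 rats, beside 27.1% of all genes. The size was small: the 2 lists lay -0.11 and -0.09 log2 from the mean in rat 4. These counts change with the scale. With mitochondrially encoded genes kept in the total, 20 of 35 complex I, 5 of 9 complex III, 10 of 13 complex IV and 5 of 15 complex V genes were highest in rat 3, beside 10.5% of all genes. Rat 4 was then the highest in 8 of 15 complex V and 3 of 4 complex II genes, beside 54.5% of all genes. On that scale 6 of 20 fatty acid oxidation genes and 2 of 16 TCA cycle genes were lowest in rat 4, beside 10.2% of all genes. Whether rat 3 and rat 4 differ in mitochondrial content or in the handling of the RNA cannot be told apart.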

How the data were processed

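Total RNA of 4 CTRL rat hearts was sequenced on an Illumina NextSeq 500, per the series' design text. The authors' deposited table gives, per the file headers, whole-number counts of exon reads per gene, unique and total exon and intron reads, junction reads, RPKM and exon length. No source used here names the aligner, the counter, the annotation, the genome build or the strand setting. The authors' RPKM values imply a denominator of 13021905 to 14313717 reads per library, more than the 4712077 to 5443100 deposited counts, so levels were computed from the counts. For each gene the deposited counts lie at or above its unique and at or below its total exon reads.

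CPM used the sum of counts over all genes, and CPM per kb divided it by the exon length. Intron share was unique intron reads over unique intron plus unique exon reads. The between-rat CV subtracted the counting variance, and was tested on simulated data, where it came out somewhat below the simulated CV. The levels of genes with under 90% unique exon reads are uncertain. Intervals and floors (3 counts) cover counting error only; the depth gives a floor of 0.551 to 0.637 CPM in 1 rat. Named genes were the 25 highest by CPM and by CPM per kb, the 12 highest and lowest intron shares at 1000 unique reads or more, the 15 highest CVs at 5 CPM or more, the 10 lowest at 100 CPM or more, and members of the lists; examples with unique, non-overlapping reads were added later by the same rules, and some genes are not reported here. Members, lists and genes were chosen with earlier results of these data known. Alternatives were unique or total exon reads, totals without mitochondrially encoded genes, TMM (edgeR 4.0.16, R 4.3.3) and median-of-ratios totals, other minimums and leaving out each rat. Python 3.11.15 with pandas 2.3.3 and scipy 1.17.1 was used. Groups came from the labels; 250 per-sample columns of the table were not used.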

Additional observations from a re-analysis of the deposited data

Results flagged for a closer look

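Among 190 values tested over the 4 rats, 11 had 1 rat far from the other 3. Chance flags about 1 in 20 groups of 4, so the number flagged is close to what chance alone would give. The genes also share the same 4 libraries, so these are not independent. The flagged genes are listed below as a description only. Rat 3 stood apart for 5 genes. It was high for Ckb with 311 CPM. It was low for Myh7 with 2293 CPM, for Adprhl1, a heart gene of the ADP-ribosyl hydrolase family, with 78.0 CPM from 52.9% unique exon reads, for Irx4 with 26.8 CPM and for Tpi1 with 128 CPM, the last from few unique reads. Rat 4 stood apart for 3 genes. It was low for Mt-co1 with 49531 CPM and for Mt-cox3 with 10385 CPM, and high for Pfkm with 809 CPM. Pfkm averaged 754 CPM over the 4 rats. On this scale all genes at 5 CPM or more also lay 0.11 log2 above the 4-rat mean in rat 4. Whether Pfkm stands apart beyond that shift was not tested. Rat 2 alone was high for Dnah5, an axonemal dynein gene, with 22 CPM, and for Sgca, a sarcoglycan, with 112 CPM. Rat 1 alone was high for Nebl, a nebulin-like Z-disc protein, with 494 CPM.

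Some features of the table carry reads outside the exon counts on which the levels rest. They are listed with 0 exons, so all their reads stand in the intron column and none enters CPM. A feature of the mitochondrial genome had a median of 1306822 unique reads per rat and another had 358872, both of them without a gene symbol. All 24 such mitochondrial features together took 18, 13.8, 17.9 and 9.03% of all unique reads in rats 1 to 4, with rat 4 the lowest here too. Among nuclear features with 0 exons, 2 without a gene symbol had medians of 48127 and 11127 reads, and Rmrp, the RNA of a mitochondrial RNA-processing ribonuclease, had 5130.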

How the results depend on the processing

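No paired analysis was possible because a single group was described and no test was made. Of 82 recomputed summary values 71 stayed within the spread between rats or within 1.5 times; the cause of the other 11 was not tested, beyond what each alternative does by construction. Without mitochondrially encoded genes in the total, the top 10 nuclear genes held 13% and 50% of the counts took 509 genes on average. The nuclear intron share was 46.3% without the 10 genes of most intron reads, 50.5% with total reads and 46.4% in non-overlapping, uniquely mapped genes. The median gene's intron share was 55.6% with no minimum, 51.8% at 1000 reads or more and 47.1% in non-overlapping, uniquely mapped genes (both non-overlapping sets were chosen after seeing the data). The Myl7 share of Myl2 plus Myl7 was 2.89% without division by length. The median CV was 0.116 with counting variance kept and 0.0555 with TMM totals. Leaving out each rat in turn gave 0.0397 to 0.0808 for this CV, 0.362 to 0.932% for the Myl7 share, 15.4 to 18.7% for the mitochondrial share and 88.7 to 90.9% for the Myh6 share; the lowest CV and the lowest Myl7 share were those without rat 4. Of the 211 named genes, 126 moved by more than their SD without mitochondrially encoded genes in the total, 54 with total exon reads, 14 with unique exon reads and 0 with TMM totals. Part of this is a change of scale. Atp2a2 and Casq2, whose exon reads were all unique, both stood at 0.945 times their level with total exon reads, and this alone was more than their SD. Depth limits genes near 0.148 CPM.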

Other observations

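Several families of the heart had a level pattern not described above. Among the sarcoglycans, which tie the cell membrane to the cytoskeleton, Sgca stood at 61.9 ± 2.86, Sgcb at 60.7 ± 3.98 and Sgcd at 28.4 ± 1.92 CPM per kb. Camk2d, the cardiac isoform of calmodulin kinase II, stood at 49.3 ± 3.74 CPM per kb and held 77.9 ± 1.37% of its family. Of the thyroid hormone receptors, which control heart rate and myosin genes, Thra stood at 27.6 ± 2.36, from 78.7% unique exon reads, and Thrb at 18.2 ± 0.969 CPM per kb. Ucp2 and Ucp3, carriers of the inner mitochondrial membrane, stood at 156 ± 23.3 and 4.37 ± 0.845 CPM per kb. The superoxide dismutases of the cytosol and of the mitochondrion, Sod1 and Sod2, stood at 273 ± 23.1 and 226 ± 6.13 CPM per kb, with Sod1 ahead in all 4 rats. Of the matrix genes, Sparc, a collagen-binding glycoprotein, was the highest with 659 ± 79.5 CPM per kb; the 18 listed together held 1.12 ± 0.231% of the counts.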
